A study of Mus musculus with 15 samples.

Results

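The mitosis and spindle genes are 48 genes that act between the end of DNA replication and the separation of daughter cells: mitotic kinases and cyclins, checkpoint and kinetochore proteins, motors, and the proteins that build the spindle, condense chromosomes and divide the cell. They were taken by name from a list chosen with earlier results of these data known. All 48 of 48 had a value among the 13513 genes that could be named in the table of 22206 probe sets. Because of that choice, this share is not a result. They were sorted into 9 lists by role.

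RNA came from hearts of wild-type C57BL/6 mice aged 8 to 12 weeks and was measured on Affymetrix arrays, with 5 arrays in each of 3 groups. CF were cardiac fibroblasts from unstressed hearts. The other groups came from infarcted hearts, 5 days after myocardial infarction (MI): aCF were the activated cardiac fibroblasts of the ventricles, and EpiSC were the stromal cells shaken off the heart's surface. The submitters called the 5 arrays of a group biological replicates. The sources used here do not give whether a replicate was 1 heart or a pool, and name no sort of the cells by a marker; 1 ng of RNA was amplified per array.

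Each value is a log2 expression level relative to the gene's own median over the 15 arrays, so 0 is that median and a difference of 1 is a doubling. Levels of different genes cannot be compared on this scale, and neither a gene's absolute level nor its signal over background can be read. For 41 of the 48 genes the median of the row was itself an aCF value, so aCF values near 0 follow from the centring. In bulk RNA, more dividing cells and more RNA per dividing cell cannot be told apart.

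The gene names rest on an inference. Identifiers and values were paired at a displacement of 6900 rows (3 more for the last part of the identifiers), which no source states. It was found from how cell cycle genes varied together within groups, so the way these 48 genes vary together between arrays of a group is not a result here. Differences between groups were not used to find it. Lists that were not used give a measure of it: the mean pairwise correlation of deviations from the group means was 0.171 for 10 endothelial and 0.483 for 9 heart muscle markers once paired, against 0.0251 and -0.0558 as deposited, and 0.0635 against 0.0623 for 13 macrophage markers. Where a gene had a pair of probe sets (25 genes), their median correlation was 0.586 once paired and -0.068 as deposited. With identifiers as deposited, 0 of the 48 genes passed the threshold in any of the 3 comparisons given here. That count shows how far the results rest on the pairing and is not a measure of whether it is right.

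Some arrays stood apart. Correlations between arrays of a group were 0.743 to 0.845 in CF, 0.551 to 0.671 in EpiSC and 0.213 to 0.54 in aCF. They were taken on centred values, where a group near the median can correlate weakly whatever its spread, so they do not rank the groups by noise. The median SD over all probe sets was 0.13 in CF, 0.18 in EpiSC and 0.16 in aCF. The heart muscle markers averaged -0.68 in aCF4 and -0.56 in aCF5, against 0.19 to 0.39 in the other 3 aCF arrays, and CF4 stood above the other CF arrays in the genes described here. Calls of single genes in aCF against CF were checked without CF4, and without aCF4 and aCF5 together, only for the mitosis and spindle genes. Where a call of these genes changed, the value without those arrays stands beside it or in the same paragraph. Calls of other pathway genes and of markers were not checked in this way. A call given for them without such a value may not hold without those arrays.

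Cells that divide pass through checkpoints that tie the order of events together. Cyclin-dependent kinase 1, bound to A and B cyclins, starts mitosis, and Polo-like and Aurora kinases set up the spindle and correct faulty attachments of chromosomes. The spindle checkpoint holds Cdc20 inactive until every chromosome is attached. Cdc20 then turns on the anaphase-promoting complex, which marks cyclin B and securin for destruction so that chromosomes part and the cell splits. Most of these genes are silent in resting cells and are transcribed late in the cycle. In the adult heart, fibroblasts are largely at rest and are known to divide in the days after an infarct, as does the epicardium.

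**Figure D1:**
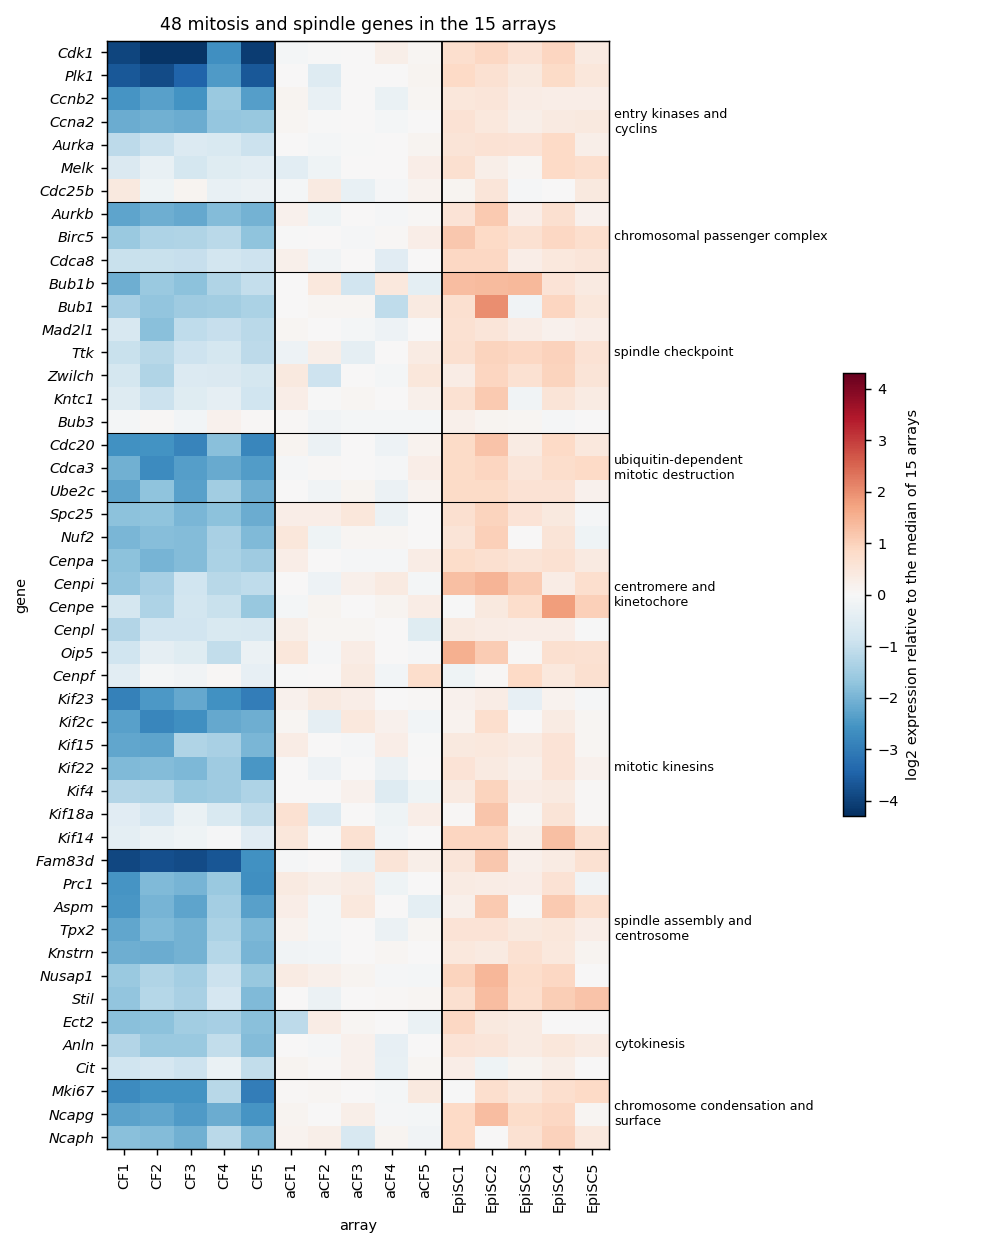
Expression of the 48 genes (rows, by role list) in the 15 arrays (columns, by group) as log2 values relative to each gene's median, with blue below and red above 0. CF arrays are blue for nearly all genes, aCF arrays are near 0, and EpiSC arrays are mostly light red. The deepest blue belongs to Cdk1, Fam83d and Plk1.

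Fibroblasts of infarcted hearts (aCF) were set against those of unstressed hearts (CF) first. Of the 48 genes, 47 had a higher mean in aCF, and the median difference was 1.50 on the log2 scale, against -0.02 over all probe sets. The differences ran from -0.08 for the checkpoint protein Bub3 to 3.87 for the mitotic kinase Cdk1, with 34 genes above 1 and 14 above 2. By the moderated test of limma, Bonferroni-adjusted over all 22206 probe sets, 25 of the 48 genes rose and 0 fell, while 1.21% of all probe sets were called higher and 0.32% lower. With Benjamini-Hochberg adjustment 43 rose, against 8.74% of all probe sets, and at an unadjusted p under 0.05 46 were higher, against 13.6%. For 40 genes the 5 aCF arrays lay above all 5 CF arrays, against 7.88% of all probe sets, and for 0 genes below them, against 6.84%. Without aCF4 and aCF5 the count past the Bonferroni threshold was 13 and the median difference 1.58.

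EpiSC had higher means still. Infarction and cell type differ together between EpiSC and CF, and their parts cannot be told apart. Set against CF, a comparison that the submitters' text does not list and that shares its CF arrays with the one above, the 48 genes had a median difference of 2.29 and a range from 0.06 to 4.53. After Bonferroni adjustment 34 of them rose and 0 fell (1.97% and 0.941% of all probe sets), and after Benjamini-Hochberg adjustment 46 rose (14.5%). Of the 34, 24 were also among the 25 called in aCF, and 10 were called in EpiSC only. Of the 34 calls 23 held whichever single array was left out, and 11 were lost in at least 1 omission. Nusap1, which bundles spindle microtubules, was called in aCF only, and its difference between EpiSC and CF was 2.19 ± 0.24 (adjusted p = 0.0583). Over 10 omissions of 1 array that p ran from 0.00353 (without EpiSC5) to 0.337. Group means stood in the ascending order CF, aCF, EpiSC for 46 of 48 genes (95.8%) and 24.1% of all probe sets. For 19 genes (39.6%) the 3 groups of arrays did not overlap in that order, against 1.23% of all probe sets.

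Between the groups from infarcted hearts, EpiSC and aCF, the differences were smaller. Cell type and isolation differ together in this comparison, since EpiSC were shaken from the surface while aCF came from digested ventricle, and their parts cannot be told apart. The mean was higher in EpiSC for 47 of 48 genes, with a median difference of 0.53 (0.01 over all probe sets), and 26 genes differed by more than 0.5. No gene of the 48 passed limma's test after Bonferroni adjustment (0 higher and 0 lower, against 0.401% and 0.266% of all probe sets). With Benjamini-Hochberg adjustment 21 rose and 0 fell, against 4.61% and 5.01% of all probe sets, and at an unadjusted p under 0.05 35 were higher, against 12.0%. In 19 genes all 5 EpiSC arrays lay above all 5 aCF arrays, against 5.18% of all probe sets, and in 0 below them, against 4.73%. The shares of all probe sets given above for each comparison are those to set beside the counts of every list below.

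**Figure D2:**
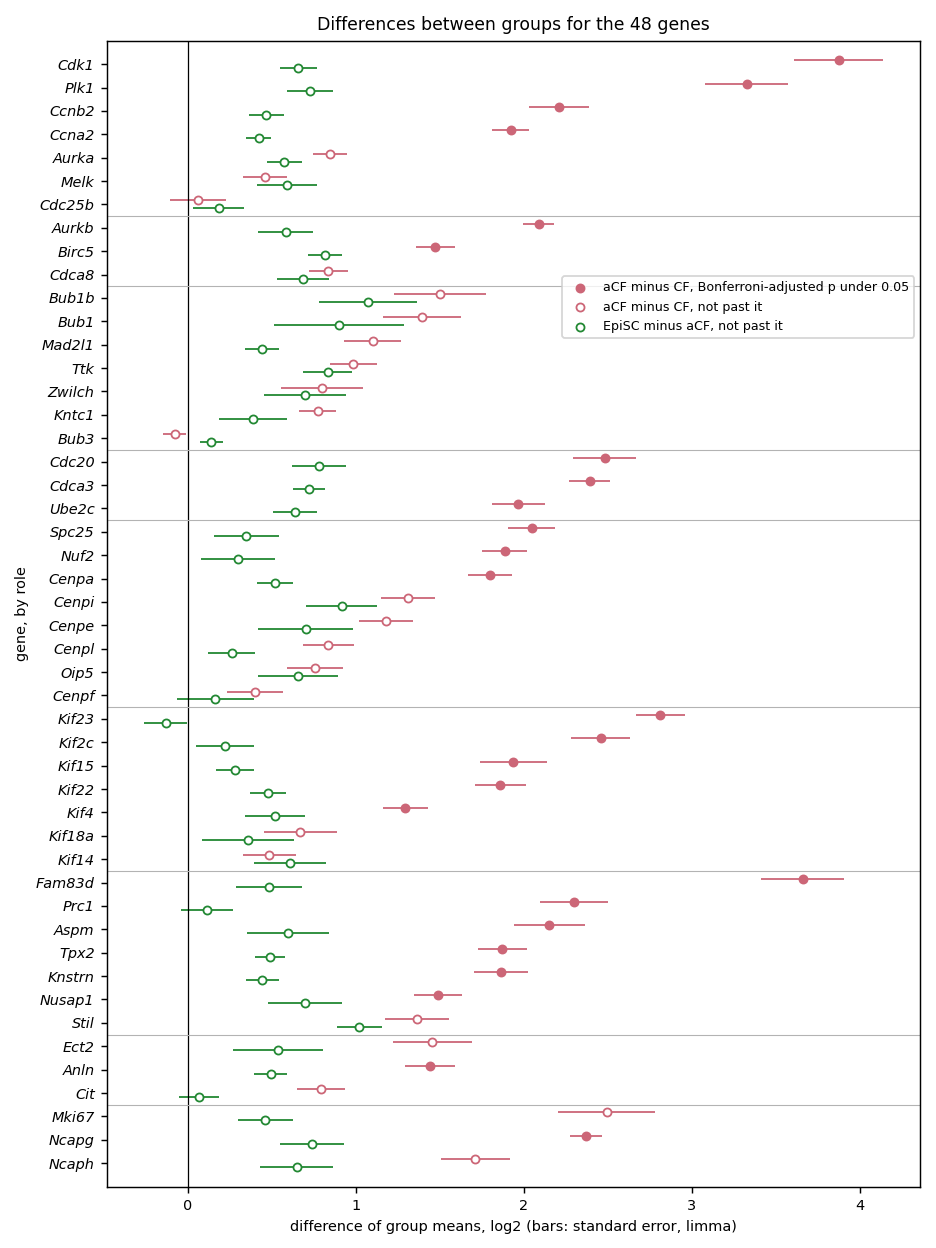
Difference of group means in log2 for each of the 48 genes, aCF minus CF in red and EpiSC minus aCF in green, with bars for limma's standard error (5 arrays per group) and grey lines between role lists. Filled points are past a Bonferroni-adjusted p of 0.05: 25 red points are filled and no green one is. Green points lie between -0.13 and 1.07.

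Promoters of the 48 genes were read because many late cell cycle genes are known to share a short element, the cell cycle genes homology region (CHR), bound by the DREAM and MuvB complexes, near boxes bound by the factor NF-Y. The RefSeq promoter table (build GRCm38.p6) held 44 of the 48, each with 250 bases before the gene start and 50 after it; Aurkb, Ccna2, Tpx2 and Zwilch are named only. The windows below run from 220 bases before to 30 after the start, on the gene's own strand, and are those of the gene with the largest aCF minus CF difference that holds a CHR motif in its role list, for the first 6 lists when lists are ranked by the largest difference of any gene in them. The passenger complex ranks among them through Aurkb, which has no window, and Cdca8 is its gene with a CHR motif; Spc25, Bub1b and Ect2, of lists not shown, had larger differences than Cdca8. Capitals mark the CHR (TTTGAA or TTCGAA) and the NF-Y box (CCAAT) on either strand, so that TTCAAA and ATTGG are the same motifs read on the other strand. In Cdca8 the motifs nearest the end overlap. Their places are Cdk1 at chr10:69352883-69353132 (minus strand), Fam83d at chr2:158767879-158768128 (plus), Kif23 at chr9:61946770-61947019 (minus), Mki67 at chr7:135716350-135716599 (minus), Cdc20 at chr4:118437314-118437563 (minus) and Cdca8 at chr4:124936888-124937137 (minus).
Cdk1: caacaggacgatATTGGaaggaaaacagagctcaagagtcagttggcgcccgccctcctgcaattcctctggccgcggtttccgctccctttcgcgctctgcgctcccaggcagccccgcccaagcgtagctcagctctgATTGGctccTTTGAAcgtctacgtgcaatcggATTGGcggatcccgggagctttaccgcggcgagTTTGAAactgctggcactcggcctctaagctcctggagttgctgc
Fam83d: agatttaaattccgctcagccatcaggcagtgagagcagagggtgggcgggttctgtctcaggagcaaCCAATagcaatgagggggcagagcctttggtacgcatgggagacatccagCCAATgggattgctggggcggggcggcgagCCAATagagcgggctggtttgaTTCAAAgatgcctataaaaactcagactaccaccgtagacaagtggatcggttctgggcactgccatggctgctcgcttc
Kif23: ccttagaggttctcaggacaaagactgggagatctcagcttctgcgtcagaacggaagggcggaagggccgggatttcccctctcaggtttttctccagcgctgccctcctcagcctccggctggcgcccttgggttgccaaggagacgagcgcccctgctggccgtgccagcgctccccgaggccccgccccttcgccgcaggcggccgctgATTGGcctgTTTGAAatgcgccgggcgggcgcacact
Mki67: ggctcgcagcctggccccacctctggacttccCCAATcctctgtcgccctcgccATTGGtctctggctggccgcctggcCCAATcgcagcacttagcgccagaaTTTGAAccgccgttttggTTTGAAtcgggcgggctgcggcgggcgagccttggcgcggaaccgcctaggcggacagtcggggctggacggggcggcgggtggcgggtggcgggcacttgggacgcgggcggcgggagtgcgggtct
Cdc20: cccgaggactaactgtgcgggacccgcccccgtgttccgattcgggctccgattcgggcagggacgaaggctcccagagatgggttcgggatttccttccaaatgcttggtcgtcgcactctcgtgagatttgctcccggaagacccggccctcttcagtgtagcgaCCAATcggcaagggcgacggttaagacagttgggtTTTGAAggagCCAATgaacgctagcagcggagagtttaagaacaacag
Cdca8: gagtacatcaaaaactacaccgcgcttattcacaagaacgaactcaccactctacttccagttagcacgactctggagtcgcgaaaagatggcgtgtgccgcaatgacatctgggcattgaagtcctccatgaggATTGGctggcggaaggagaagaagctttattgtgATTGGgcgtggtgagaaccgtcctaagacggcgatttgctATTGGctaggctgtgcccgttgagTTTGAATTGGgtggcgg

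TTTGAA stood in 30 of the 44 windows (68.2%) and in 18.1% of the windows of all 27025 genes in the table, on either strand. TTCGAA stood in 3 (6.82%, against 1.57%), and at least 1 of these letters in 32 (72.7%, against 19.4%). Matches lay near the start: 28 windows (63.6%) held one in the stretch from 50 bases before the start onward, against 5.29% of all genes. CCAAT stood in 32 windows (72.7%, against 37.9%), at 2 or more places in 23 (52.3%, against 12.2%), and together with a CHR motif in 29 (65.9%, against 7.7%). Motifs of E2F sites stood in few windows: TTTGGCGC was in 3 (6.82%, against 0.537%) and TTTCCCGC in 2 (4.55%, against 1.11%). GGCGGG, which is also common in promoters at large and can overlap an E2F site, stood in 28 (63.6%, against 35.5%).

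DNA replication genes, which are transcribed earlier in the cycle, were searched in the same way. Of their 32 windows, 18.8% held a CHR motif, 6.25% held it from 50 bases before the start onward, and 18.8% held TTTGGCGC. CCAAT stood in 59.4% of them, against 72.7% of the mitosis and spindle windows and 37.9% of all genes. It stood at 2 or more places in 34.4%, against 52.3% and 12.2%. GGCGGG stood in 78.1%, against 63.6% and 35.5%. The 32 mitosis and spindle genes with a CHR motif had a median aCF minus CF difference of 1.83, with 18 past the Bonferroni threshold. The 12 without one (Nuf2, Knstrn, Ncaph, Nusap1, Birc5, Stil, Cenpi, Cenpe, Mad2l1, Cit, Kif18a and Melk) had a median of 1.34, with 4 past it, and the ranges overlapped, from -0.08 to 3.87 and from 0.46 to 1.89. Genes with and without CCAAT had medians of 1.48 and 1.48. These are matches of letters and were not measured as sites of binding.

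**Figure D3:**
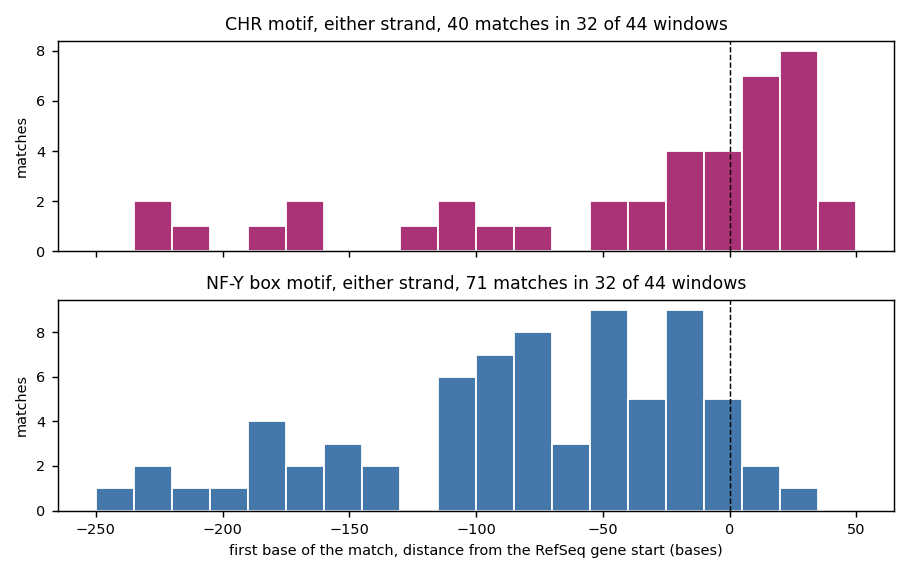
Position of each match in the 44 windows, as the distance in bases of its first base from the RefSeq gene start (dashed line at 0), in bins of 15 bases, for the CHR motif (above) and the NF-Y box (below), both strands counted. Of the 40 CHR matches 29 lie from 50 bases before the start onward, and the 71 NF-Y box matches have a median position of -71.

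The kinases and cyclins of mitotic entry held the gene with the largest difference, Cdk1. Of 7 genes 4 rose in aCF after Bonferroni adjustment and 6 after Benjamini-Hochberg adjustment, with a median of 1.92. Cdk1, the kinase that starts mitosis, read -3.94, -4.23, -4.2, -2.65 and -4.07 in CF1 to CF5, -0.07, -0.02, 0, 0.26 and 0.1 in aCF1 to aCF5, and 0.73, 0.89, 0.61, 0.93 and 0.4 in EpiSC1 to EpiSC5. The 3 groups did not overlap, and CF4 stood well above the other CF arrays. Cdk1 was 3.87 ± 0.27 higher in aCF than in CF on the log2 scale (SE, n = 5 arrays per group), a 14.6-fold difference (limma, Bonferroni-adjusted p = 0.000636), and 23.1-fold higher in EpiSC than in CF (adjusted p = 0.000245). Its promoter, shown above, holds 2 CHR motifs and 3 NF-Y boxes. Plk1, the Polo-like kinase of centrosomes and spindle, read -3.65, -3.86, -3.44, -2.43 and -3.66 in CF, 0.01, -0.55, 0, 0 and 0.13 in aCF and 0.85, 0.65, 0.43, 0.82 and 0.48 in EpiSC. Again the groups were apart, with CF4 the highest CF array and aCF2 below the other aCF arrays. The aCF minus CF difference of Plk1 was 3.33 ± 0.25, or 10.03-fold (adjusted p = 0.00139; 0.0857 without aCF4 and aCF5).

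The A and B cyclins followed. Ccnb2 rose by 2.21 ± 0.18 (adjusted p = 0.00322; 0.108 without aCF4 and aCF5) and Ccna2 by 1.92 ± 0.11 (adjusted p = 8.74e-05) in aCF. Aurka, the Aurora kinase of the centrosome, differed by 0.85 ± 0.10 (adjusted p = 0.14), and its difference between EpiSC and CF, 1.42 ± 0.13, passed (adjusted p = 0.0121). That call was lost in 5 of 10 omissions of an array (without CF2, CF5, EpiSC1, EpiSC2 or EpiSC3; adjusted p up to 0.0815). Melk, a kinase of dividing cells, differed by 0.46 ± 0.13 in aCF (adjusted p = 1). Cdc25b, the phosphatase that switches on Cdk1, had group means of -0.04 ± 0.31 in CF, 0.02 ± 0.27 in aCF and 0.20 ± 0.25 in EpiSC (SD, n = 5), with overlapping arrays and a difference of 0.06 ± 0.17 that turned to -0.01 without CF4 and -0.04 without aCF2. Between EpiSC and aCF, 5 of the 7 rose after Benjamini-Hochberg adjustment, Cdk1 by 0.66 ± 0.11 (adjusted p = 0.00435) and Plk1 by 0.73 ± 0.14 (adjusted p = 0.00839).

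The chromosomal passenger complex corrects wrong attachments of chromosomes to the spindle. Its kinase Aurkb read -2.28, -2.11, -2.19, -1.88 and -2.02 in the CF arrays, 0.18, -0.2, 0, -0.06 and 0.04 in the aCF arrays and 0.6, 1.13, 0.27, 0.68 and 0.2 in the EpiSC arrays. CF arrays of Aurkb were tight, and each group lay wholly above the one before it. The difference between aCF and CF was 2.09 ± 0.09, 4.25-fold, at an adjusted p of 6.14e-06 (limma, Bonferroni). Birc5 (survivin), which brings the complex to centromeres, read -1.6, -1.34, -1.3, -1.15 and -1.74 in CF, -0.02, 0, -0.05, 0.04 and 0.27 in aCF and 1.17, 0.86, 0.67, 0.9 and 0.73 in EpiSC. Again no arrays overlapped. Birc5 rose by 1.47 ± 0.11 in aCF (adjusted p = 0.00197; 0.0672 without aCF4 and aCF5) and differed by 0.82 ± 0.10 between EpiSC and aCF, which passed Benjamini-Hochberg (0.000879) but not Bonferroni adjustment (0.236). Cdca8 (borealin) had the smallest difference of the 3 genes, with means of -0.91 ± 0.08 in CF, -0.08 ± 0.27 in aCF and 0.61 ± 0.27 in EpiSC. It passed in EpiSC against CF (1.52 ± 0.12, adjusted p = 0.00256) and not in aCF against CF (adjusted p = 0.515), although its 3 groups did not overlap. The lowest adjusted p of 10 omissions of 1 array in aCF against CF was 0.0159, without aCF4.

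Spindle checkpoint genes delay anaphase until every kinetochore is attached. None of the 7 passed Bonferroni adjustment in aCF against CF (0 higher, 0 lower), 6 rose after Benjamini-Hochberg adjustment and 6 were higher at an unadjusted p under 0.05, with a median difference of 0.99. Bub1b (BubR1), a subunit of the complex that inhibits Cdc20, read -2.11, -1.61, -1.78, -1.29 and -1.04 in CF, 0, 0.45, -0.81, 0.45 and -0.41 in aCF and 1.32, 1.37, 1.38, 0.6 and 0.38 in EpiSC. The aCF arrays of Bub1b were spread over more than 1 log2 unit, all above CF, and EpiSC5 lay just below the highest aCF arrays. Its difference was 1.50 ± 0.27 between aCF and CF (adjusted p = 0.00362, Benjamini-Hochberg) and 1.07 ± 0.29 between EpiSC and aCF (adjusted p = 0.0449, Benjamini-Hochberg), the largest of the 48 in that comparison.

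Bub1, the kinase that recruits checkpoint proteins to kinetochores, read -1.42, -1.71, -1.53, -1.5 and -1.36 in CF, 0, 0.07, 0.09, -1.1 and 0.39 in aCF and 0.7, 2.0, -0.16, 0.94 and 0.48 in EpiSC. CF arrays lay close together, aCF4 fell far below the other aCF arrays, and EpiSC ranged over more than 2 log2 units with EpiSC3 among the aCF arrays. The difference between aCF and CF was 1.39 ± 0.23 (adjusted p = 1 by Bonferroni and 0.0023 by Benjamini-Hochberg). Without aCF4 and aCF5 it passed the Bonferroni threshold (adjusted p = 0.000933). It also did without aCF4 alone (0.00053), the lowest of 10 omissions of 1 array. Mad2l1 (Mad2) differed by 1.10 ± 0.17, Ttk (the kinase Mps1) by 0.99 ± 0.14, Zwilch by 0.80 ± 0.24 and Kntc1 (Rod), its partner at the outer kinetochore, by 0.77 ± 0.11, each past the Benjamini-Hochberg threshold. Bub3 stood apart from the rest of the list. Its means were 0.01 ± 0.12 in CF, -0.07 ± 0.08 in aCF and 0.08 ± 0.10 in EpiSC, the arrays of the groups overlapped, and the difference between aCF and CF was -0.08 ± 0.07 (adjusted p = 0.497, Benjamini-Hochberg). In EpiSC against CF, Ttk (1.82 ± 0.10, adjusted p = 0.000117), Bub1b (adjusted p = 0.0253) and Zwilch (adjusted p = 0.0408) passed the Bonferroni threshold. The calls of Bub1b and Zwilch were each lost in 8 of 10 omissions of an array, that of Bub1b in those other than CF5 and EpiSC5 (adjusted p up to 0.157) and that of Zwilch in those other than CF2 and EpiSC1 (up to 0.217).

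All 3 genes of ubiquitin-dependent mitotic destruction rose in aCF after Bonferroni adjustment. Cdc20, which activates the anaphase-promoting complex, read -2.59, -2.56, -2.84, -1.79 and -2.82 in CF, 0.12, -0.26, 0, -0.21 and 0.16 in aCF and 0.82, 1.21, 0.35, 0.87 and 0.46 in EpiSC. The groups did not overlap, and CF4 was again the highest CF array. Its difference was 2.48 ± 0.19, 5.59-fold (adjusted p = 0.00157; 0.0684 without aCF4 and aCF5). Cdca3, which promotes destruction of the kinase that restrains Cdk1, read -2.05, -2.72, -2.37, -2.18 and -2.4 in CF, -0.06, 0.05, 0, -0.04 and 0.29 in aCF and 0.82, 0.91, 0.51, 0.75 and 0.87 in EpiSC. Here CF4 lay inside the range of the other CF arrays, and the 3 groups were apart. Cdca3 rose by 2.39 ± 0.12, 5.25-fold (adjusted p = 2.76e-05). Ube2c, the ubiquitin-conjugating enzyme that serves the complex, had the smallest difference of the list, with means of -1.99 ± 0.36 in CF, -0.02 ± 0.17 in aCF and 0.61 ± 0.26 in EpiSC (adjusted p = 0.00329 for aCF against CF, and 0.0941 without aCF4 and aCF5). In EpiSC against aCF these genes differed by 0.64 to 0.78, and 3 of 3 passed Benjamini-Hochberg adjustment with groups that did not overlap.

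**Figure D4:**
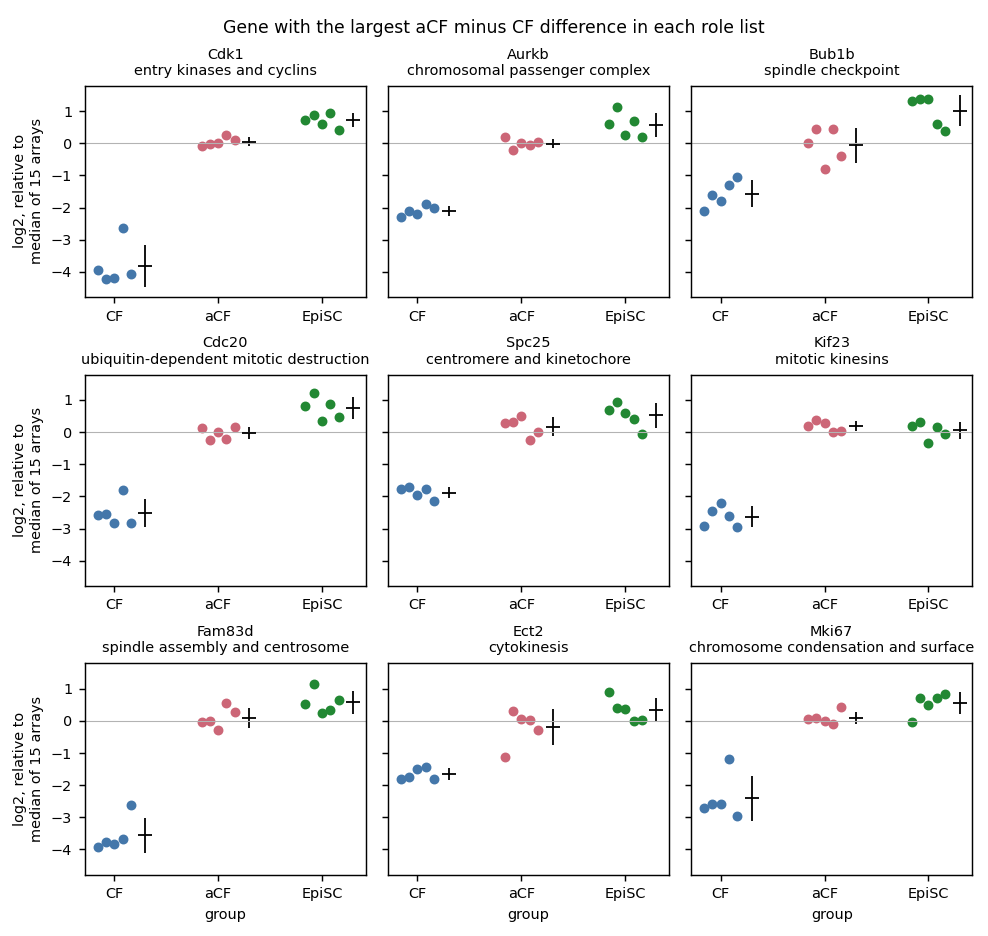
Log2 values, relative to each gene's median over 15 arrays, of the gene with the largest aCF minus CF difference in each of the 9 role lists, for the arrays of CF, aCF and EpiSC in replicate order. Points are arrays, and the black marks are the mean and SD of the 5 arrays. CF arrays lie below all aCF arrays in every panel, while EpiSC and aCF overlap for Bub1b, Spc25, Kif23, Fam83d, Ect2 and Mki67.

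Centromere and kinetochore genes join chromosomes to the spindle. Of 8 genes 3 rose in aCF after Bonferroni adjustment and 7 after Benjamini-Hochberg adjustment, with a median difference of 1.25. Spc25, a subunit of the Ndc80 complex that grips microtubules, read -1.78, -1.72, -1.97, -1.78 and -2.15 in CF, 0.29, 0.3, 0.5, -0.26 and 0 in aCF and 0.68, 0.95, 0.6, 0.41 and -0.06 in EpiSC. All CF arrays lay below all others, and aCF and EpiSC overlapped. Spc25 rose by 2.05 ± 0.14, 4.13-fold (adjusted p = 0.00066). Nuf2, a second subunit of that complex, read -1.97, -1.84, -1.86, -1.41 and -1.89 in CF, 0.48, -0.19, 0.07, 0.1 and 0 in aCF and 0.54, 1.04, 0, 0.56 and -0.19 in EpiSC. CF stood apart, while the EpiSC arrays ran from the lowest aCF array to above the highest. Nuf2 rose by 1.89 ± 0.14 (adjusted p = 0.00093) and differed by 0.30 ± 0.22 between EpiSC and aCF.

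Cenpa, the histone variant that marks centromeres, rose by 1.80 ± 0.13 (adjusted p = 0.000964), and Oip5, which helps to load it, differed by 0.76 ± 0.17 (adjusted p = 0.00992, Benjamini-Hochberg). Cenpi and Cenpl belong to the network that sits on centromeres through the cycle, and differed by 1.31 ± 0.16 and 0.84 ± 0.15. Cenpe, a kinesin of kinetochores, differed by 1.18 ± 0.16, and its EpiSC arrays had the widest spread of the 8 genes, from -0.03 to 1.8. Cenpf had the smallest difference, with means of -0.20 ± 0.20 in CF, 0.20 ± 0.36 in aCF and 0.36 ± 0.44 in EpiSC, and did not pass Benjamini-Hochberg adjustment in aCF against CF (adjusted p = 0.127). Between EpiSC and aCF, Cenpi (0.92 ± 0.21) and Cenpa (0.52 ± 0.11) passed that adjustment.

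Of the 7 mitotic kinesins, motors that move along or take apart microtubules, 5 rose in aCF after Bonferroni adjustment, with a median difference of 1.86. Kif23, a motor of the central spindle, read -2.91, -2.47, -2.2, -2.61 and -2.96 in CF, 0.2, 0.38, 0.29, 0 and 0.04 in aCF and 0.18, 0.31, -0.34, 0.16 and -0.05 in EpiSC. CF was far below both other groups, whose arrays overlapped. Kif23 rose by 2.81 ± 0.15, 7.02-fold (adjusted p = 3.24e-05), and was the one gene of the 48 with a lower mean in EpiSC than in aCF, by a difference within the spread of the arrays (-0.13 ± 0.13, adjusted p = 0.596, Benjamini-Hochberg). Kif2c, which takes microtubules apart at centromeres, read -2.34, -2.8, -2.64, -2.2 and -2.09 in CF, 0.09, -0.38, 0.44, 0.19 and -0.13 in aCF and 0.15, 0.71, 0, 0.35 and 0.1 in EpiSC. It showed the same layout. Kif2c rose by 2.46 ± 0.17, 5.49-fold (adjusted p = 0.00082).

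Kif15, which helps to keep the poles apart, rose by 1.94 ± 0.20 (adjusted p = 0.0287), and Kif22 and Kif4, motors carried on chromosomes, by 1.86 ± 0.15 (adjusted p = 0.00322) and 1.30 ± 0.13 (adjusted p = 0.0343). Without aCF4 and aCF5 the calls of Kif15 (adjusted p = 0.803) and Kif22 (0.111) were lost. With 1 array left out at a time, Kif15 lost its call in 8 of 10 omissions (not without CF3 or CF4; adjusted p up to 0.173) and Kif4 in 9 of 10 (not without aCF4; up to 0.203, without CF4). Kif18a, which lines up chromosomes, differed by 0.67 ± 0.22 (adjusted p = 0.0575, Benjamini-Hochberg). Kif14, a motor of cell separation, had the smallest difference, with means of -0.29 ± 0.18 in CF, 0.20 ± 0.35 in aCF and 0.81 ± 0.40 in EpiSC (adjusted p = 0.0587, Benjamini-Hochberg). In EpiSC against aCF the kinesins had a median difference of 0.36, and Kif22 (0.48 ± 0.11) passed Benjamini-Hochberg adjustment.

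Genes of spindle assembly and the centrosome followed closely. In aCF 6 of 7 rose after Bonferroni adjustment, with a median difference of 1.87. Fam83d, a spindle protein that brings in casein kinase, read -3.93, -3.78, -3.83, -3.67 and -2.61 in CF, -0.05, 0, -0.28, 0.54 and 0.26 in aCF and 0.53, 1.15, 0.23, 0.34 and 0.64 in EpiSC. Here CF5, not CF4, was above the other CF arrays, and aCF and EpiSC overlapped. The difference was 3.66 ± 0.25, 12.6-fold (adjusted p = 0.000535), second to Cdk1 among the 48. Prc1, which bundles microtubules between the separating chromosomes, read -2.52, -1.9, -2.01, -1.59 and -2.65 in CF, 0.4, 0.26, 0.35, -0.18 and 0 in aCF and 0.35, 0.32, 0.27, 0.62 and -0.16 in EpiSC. CF was apart, and EpiSC and aCF overlapped almost fully. Prc1 rose by 2.30 ± 0.20 (adjusted p = 0.00699; 0.0639 without aCF4 and aCF5), and its difference between EpiSC and aCF, 0.11 ± 0.16, became -0.06 without aCF4 and aCF5.

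Aspm, a protein of spindle poles, rose by 2.15 ± 0.21 (adjusted p = 0.0202), and Tpx2, which activates Aurka and starts microtubules near chromosomes, by 1.87 ± 0.15 (adjusted p = 0.00197). Knstrn, a spindle and kinetochore protein, rose by 1.86 ± 0.16 (adjusted p = 0.00521) and Nusap1 by 1.49 ± 0.14 (adjusted p = 0.0141). Without aCF4 and aCF5 none of these 4 calls held (adjusted p = 0.112 for Aspm, 0.0546 for Tpx2, 0.254 for Knstrn and 0.108 for Nusap1). The calls of Aspm and Nusap1 were also lost in 8 of 10 omissions of 1 array, those other than CF4 and aCF5. Stil, which is needed to duplicate centrioles, had the smallest difference of the list, with means of -1.38 ± 0.45 in CF, -0.02 ± 0.13 in aCF and 1.00 ± 0.29 in EpiSC. It did not pass in aCF against CF (adjusted p = 0.489, and 0.0235 without CF4, the lowest of 10 omissions of 1 array). Its EpiSC minus aCF difference, 1.02 ± 0.14, was past Benjamini-Hochberg (0.00115) and not past Bonferroni adjustment (0.359), with EpiSC arrays all above aCF arrays.

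Cytokinesis, the last step, was represented by 3 genes, of which 1 rose in aCF after Bonferroni adjustment and 3 after Benjamini-Hochberg adjustment. Ect2, the exchange factor that switches on RhoA at the cell's equator, read -1.81, -1.75, -1.5, -1.42 and -1.8 in CF, -1.13, 0.32, 0.07, 0.02 and -0.28 in aCF and 0.89, 0.41, 0.36, 0 and 0.03 in EpiSC. A low aCF1 lay between the groups, still above every CF array. Ect2 differed by 1.46 ± 0.24 between aCF and CF (adjusted p = 0.00183, Benjamini-Hochberg). Without aCF1 it passed Bonferroni adjustment at 0.00506, the lowest of 10 omissions of 1 array. In EpiSC against CF it passed the Bonferroni threshold (1.99 ± 0.17, adjusted p = 0.00457). Anln (anillin), which ties the contractile ring together, read -1.27, -1.61, -1.58, -1.07 and -1.88 in CF, 0.03, -0.04, 0.17, -0.36 and 0 in aCF and 0.59, 0.51, 0.34, 0.48 and 0.35 in EpiSC. No arrays of Anln overlapped between groups. The rise in aCF was 1.44 ± 0.15 (adjusted p = 0.0378), and that call was lost in 8 of 10 omissions of an array, those other than CF4 and aCF4 (adjusted p from 0.0179 to 0.224 over the 10), and without aCF4 and aCF5 (0.272). Cit (citron kinase) had the smallest difference, with means of -0.77 ± 0.29 in CF, 0.03 ± 0.20 in aCF and 0.09 ± 0.19 in EpiSC. Its EpiSC minus aCF difference, 0.07 ± 0.12, turned to -0.02 without aCF4.

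Chromosome condensation and the chromosome surface were represented by 3 genes, of which 1 rose in aCF after Bonferroni adjustment. Mki67, which coats mitotic chromosomes and encodes the proliferation marker Ki-67, read -2.71, -2.58, -2.58, -1.18 and -2.96 in CF, 0.05, 0.08, 0, -0.1 and 0.42 in aCF and -0.02, 0.72, 0.5, 0.71 and 0.85 in EpiSC. CF4 lay more than 1 log2 unit above the other CF arrays and still below every aCF and EpiSC array. The difference of 2.49 ± 0.29, 5.63-fold, did not pass Bonferroni adjustment (adjusted p = 0.0928) and passed Benjamini-Hochberg adjustment (0.000226). Without CF4 it was 2.80 at a Bonferroni-adjusted p of 2.44e-05, the lowest of 10 omissions of 1 array (up to 0.502). Ncapg, a condensin subunit, read -2.29, -2.24, -2.44, -2.12 and -2.55 in CF, 0.11, 0, 0.25, -0.06 and -0.08 in aCF and 0.85, 1.33, 0.79, 0.88 and 0.08 in EpiSC. CF arrays of Ncapg were tight, and among EpiSC arrays EpiSC5 lay within the aCF range. Ncapg rose by 2.37 ± 0.10, 5.18-fold (adjusted p = 2.4e-06), the lowest adjusted p of the 48 in this comparison. Ncaph, a second condensin subunit, had means of -1.77 ± 0.35 in CF, -0.06 ± 0.38 in aCF and 0.59 ± 0.38 in EpiSC. It did not pass in aCF against CF (adjusted p = 0.134). Over 10 omissions of 1 array that p ran from 0.0258 (without aCF3) to 0.695, and was 0.0346 without CF4. In EpiSC against CF Ncaph passed (adjusted p = 0.00891), a call lost in 5 of 10 omissions (without CF1, CF2, CF3, CF5 or EpiSC3, up to 0.0622).

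Averaged over the 48 genes, each array's level went with its group. CF arrays averaged -1.69, -1.67, -1.61, -1.27 and -1.68, aCF arrays 0.09, -0.04, 0.05, -0.07 and 0.07, and EpiSC arrays 0.60, 0.77, 0.39, 0.63 and 0.36. The groups did not overlap on this average. CF4 was the highest CF array for 29 of the 48 genes, against 22.8% of all probe sets. EpiSC2 was the highest EpiSC array for 22 (20.1% of all probe sets), and EpiSC5 the lowest for 19 (22.4%). The median SD of a gene over the 5 arrays was 0.29 in CF, 0.21 in aCF and 0.28 in EpiSC, against 0.13, 0.16 and 0.18 over all probe sets. For the DNA replication genes CF4 averaged -0.48, inside the CF range of -0.57 to -0.41. In CF4 the lymphocyte markers averaged 0.00, the highest of the CF arrays (range -0.09 to 0.00). The pericyte and smooth muscle markers averaged -0.96, the lowest (range -0.96 to -0.30). In each of the other marker lists CF4 was neither the highest nor the lowest CF array. The part of any cell type in the level of CF4 was not tested.

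Other genes of the same pathways had smaller median differences, which were not tested against those of the 48 genes. Of 88 further mitosis genes 44 had a value, with a median aCF minus CF difference of 0.40. After Bonferroni adjustment 9 rose and 0 fell (1.21% and 0.32% of all probe sets). After Benjamini-Hochberg adjustment 22 rose and 2 fell (8.74% and 9.38%). The largest differences were those of Depdc1a (2.77 ± 0.16, adjusted p = 0.000105), Mastl, the kinase Greatwall that keeps phosphatases off during mitosis (2.22 ± 0.22, adjusted p = 0.0264), and Hmmr, a spindle pole protein (1.80 ± 0.16, adjusted p = 0.00623). The lowest was Numa1, which anchors spindle poles (-0.60 ± 0.07, adjusted p = 0.0955). In EpiSC against aCF the median was 0.27, and 0 passed Bonferroni adjustment. After Benjamini-Hochberg adjustment 7 rose and 1 fell (4.61% and 5.01% of all probe sets). At an unadjusted p under 0.05, 16 were higher and 5 lower (12.0% and 11.9%).

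The core subunits of the anaphase-promoting complex, unlike its activator Cdc20, had a median aCF minus CF difference of 0.09 over 12 of 14 genes. Of them 0 passed Bonferroni adjustment. After Benjamini-Hochberg adjustment 2 rose (8.74% of all probe sets did), Anapc15 by 0.69 ± 0.18 and Anapc4 by 0.52 ± 0.08. At an unadjusted p under 0.05, 4 were higher (13.6% of all probe sets). Anapc7 differed by 0.30 ± 0.12, and the lowest was Anapc5 at -0.06 ± 0.06. Cohesin, the ring that holds sister chromatids, ran the other way. All 6 measured of 12 genes had lower means in aCF than in CF, with a median of -0.33. Of them 2 fell after Benjamini-Hochberg adjustment (9.38% of all probe sets did) and 0 after Bonferroni adjustment. At an unadjusted p under 0.05, 6 were lower (17.6% of all probe sets). Smc1a was the lowest at -0.61 ± 0.08 (adjusted p = 0.00039, Benjamini-Hochberg), and Pds5a, Mau2 and Pds5b were nearest to 0 at -0.20 ± 0.06, -0.23 ± 0.09 and -0.25 ± 0.10.

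Transcription regulators of mitotic genes had 17 of 22 members with a value, a median aCF minus CF difference of 0.21, and 2 that rose after Bonferroni adjustment. These were the E2F repressors E2f8 (2.63 ± 0.19, adjusted p = 0.00121) and E2f7 (0.88 ± 0.09, adjusted p = 0.038). Mybl2 (B-Myb), which joins the MuvB complex at CHR elements, differed by 1.50 ± 0.25 (adjusted p = 1 by Bonferroni and 0.00215 by Benjamini-Hochberg). The pocket protein Rbl2 (p130), part of the DREAM repressor of resting cells, was the lowest at -0.37 ± 0.09 in aCF (adjusted p = 0.0125, Benjamini-Hochberg) and fell in EpiSC against CF (-0.94 ± 0.09, adjusted p = 0.026, Bonferroni).

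Genes of earlier cell cycle steps were measured in the same way. Of the G1 cyclins and kinases, 6 of 8 had a value, with a median aCF minus CF difference of 0.82. Ccne1, a cyclin E gene, rose by 1.17 ± 0.12 (adjusted p = 0.0265), Ccne2 differed by 1.40 ± 0.16 (adjusted p = 0.0732), Cdk2 by 0.86 ± 0.10, and Ccnd2 was the lowest at 0.22 ± 0.09. Cdk inhibitors had 6 of 8 members with a value and a median of 0.08, and 0 of them passed Bonferroni adjustment. After Benjamini-Hochberg adjustment 2 rose (8.74% of all probe sets did), Cdkn2b by 0.88 ± 0.10 and Cdkn2a by 0.76 ± 0.11. At an unadjusted p under 0.05, 2 were higher and 1 lower (13.6% and 17.6% of all probe sets). Cdkn2c differed by 0.11 ± 0.11 and Cdkn1c by -0.16 ± 0.07.

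DNA replication genes had 26 of 40 members with a value. Their median difference was 0.41 for aCF against CF and 0.58 for EpiSC against aCF, where the 48 mitosis and spindle genes had 1.50 and 0.53. After Bonferroni adjustment 4 rose in aCF, among them the thymidylate synthase Tyms (1.24 ± 0.08), the replicative helicase subunit Gins2 (1.13 ± 0.09) and the ribonucleotide reductase subunit Rrm1 (1.10 ± 0.10). Pola1, of the primase complex, was the lowest at -0.40 ± 0.14. Gins2 was the one gene of the pathway lists past the Bonferroni threshold between EpiSC and aCF. It read -1.43, -1.14, -1.24, -1.03 and -0.95 in CF, 0, 0.01, -0.16, -0.02 and 0.04 in aCF and 1.12, 1.16, 0.93, 1.22 and 0.75 in EpiSC. Its groups did not overlap, and EpiSC was 1.06 ± 0.09 above aCF (adjusted p = 0.00945).

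Markers of the labelled cells and of other cells in a heart were measured beside these genes. Because values are centred, a marker that is off in every array cannot be told from one that is on. Of 12 fibroblast markers 11 had a value, with a median aCF minus CF difference of -0.07. In EpiSC against aCF all 11 had lower means in EpiSC, with a median of -0.34. After Benjamini-Hochberg adjustment 7 of them fell (5.01% of all probe sets did) and 0 after Bonferroni adjustment. The collagen genes Col1a1, Col1a2 and Col3a1 rose in aCF by 1.18, 1.27 and 1.07, and Ddr2 and Gsn fell after Bonferroni adjustment. Epicardial markers had 9 of 14 members with a value and a median EpiSC minus aCF difference of 2.36, and Wt1 (2.01 ± 0.18, adjusted p = 0.00883), Bnc1 and Dmkn rose. After Benjamini-Hochberg adjustment 6 of the 9 rose in EpiSC (4.61% of all probe sets did) and 1 fell (5.01%), Tcf21 (-0.98 ± 0.19). Tbx18 and Aldh1a2 differed by 0.10 ± 0.16 and -0.02 ± 0.14.

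Immune and vascular markers varied too. Macrophage and monocyte markers (13 of 18) were higher in aCF than in CF in 13 of 13 cases, with a median of 0.29. Of them 0 passed Bonferroni adjustment and 6 rose after Benjamini-Hochberg adjustment (8.74% of all probe sets did). At an unadjusted p under 0.05, 8 were higher (13.6% of all probe sets). Their average over the list was -0.24 to -0.05 in CF, 0.11 to 0.37 in aCF and -0.17 to -0.02 in EpiSC arrays. Fcgr3, named after its values were seen, differed from that average. Its means were -0.98 ± 0.16 in CF, 0.01 ± 0.25 in aCF and 0.47 ± 0.64 in EpiSC, the order of the mitosis and spindle genes. Its EpiSC and aCF arrays overlapped, and that difference was 0.45 ± 0.28 (adjusted p = 0.365, Benjamini-Hochberg). Fcgr3 was the 1 marker of the 13 with a higher mean in EpiSC than in aCF, where their median was -0.26. After Benjamini-Hochberg adjustment 5 of the 13 fell there (5.01% of all probe sets did) and 0 rose (4.61%). Lymphocyte markers (9 of 13) had a median difference of 0.05 in aCF against CF and 0.06 in EpiSC against aCF. Endothelial markers (10 of 13) had medians of -0.28 and -0.35, and pericyte and smooth muscle markers (8 of 12) of 1.00 and -0.71. Neutrophil markers (6 of 8) had medians of -0.003 and 0.09, heart muscle markers (9 of 14) of -0.40 and -0.41, and red blood cell precursor markers (2 of 8) of -0.28 and 0.61. The part of these cell types in the differences of the 48 genes was not tested.

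**Figure D5:**
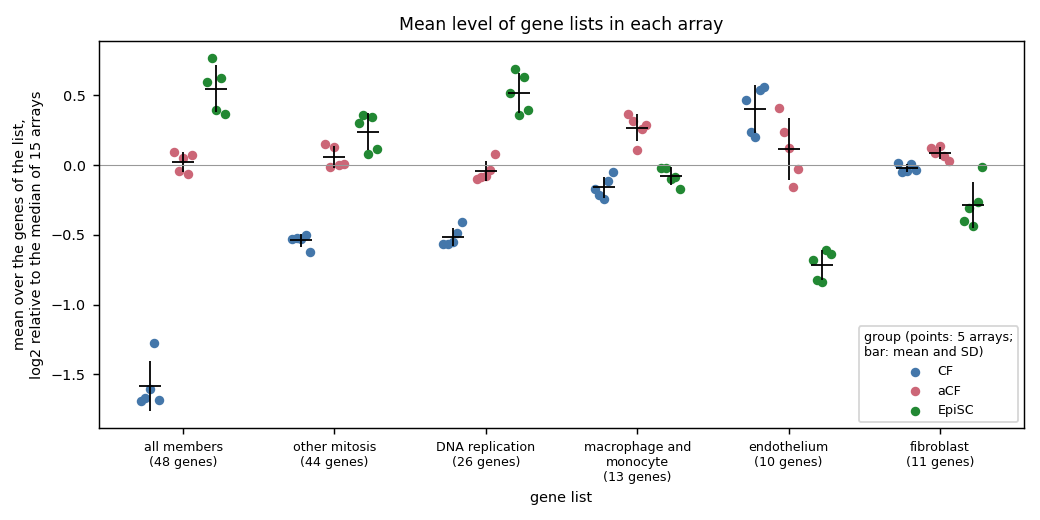
Mean over the genes of a list, in log2 relative to the median of 15 arrays, for each array of CF, aCF and EpiSC; points are the 5 arrays, and black marks are their mean and SD. For the 48 mitosis and spindle genes (all members) CF lies between -1.69 and -1.27, aCF near 0 and EpiSC between 0.36 and 0.77; macrophage and monocyte markers are highest in aCF, and endothelial markers lowest in EpiSC.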

How the data were processed

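Per the series' design text, the authors normalized Affymetrix probe signals by quantiles, summarized them with ExonRMA16 in GeneSpring GX 12.5 and centred each probe set on its median over all samples. The deposited values are log2 values of that kind. The base 2 is inferred from the method and the range of -4.77 to 5.52. A filter the text mentions (raw signal, 20th percentile) needs uncentred values, so all 22206 rows were tested, 6903 of them without an identifier. Of all probe sets 19572 had 1 symbol, 0 several and 2634 none; the 19572 were in the RefSeq gene table, and 13538 paired rows had a name.

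Each comparison was fitted on its 10 arrays with limma 3.58.1 in R 4.3.3 (lmFit, eBayes), 2-sided, with Bonferroni adjustment over all rows (threshold 0.05), as in the design text; Benjamini-Hochberg adjustment was an alternative. P-values weigh a difference against the spread between arrays, moderated over all rows, and their precision is limited by how few arrays there are. Whether that spread is between single hearts or pools is not known here. The fit was tested on simulated data. At most 2.45% of values were identical between any 2 arrays.

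In each role list, array values and full statistics are given for the 2 genes with the largest aCF minus CF difference, and group means for the gene with the smallest; of each other pathway list, genes past the threshold between EpiSC and aCF and at most the 3 largest and the lowest aCF minus CF difference are named. Promoters shown follow the rule given with them. Members, lists and alternatives were chosen with earlier results of these data known, and the displacement was taken over from them. Genes on identifiers with no value were not analysed here. Alternatives were a fit of all 3 groups, adjustment over only the 15303 rows with an identifier, a further quantile normalization, robust moderation and a replicate block. Arrays were also left out in turn, aCF4 and aCF5 were left out together, and the identifiers were used as deposited.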

Additional observations from a re-analysis of the deposited data

Results flagged for a closer look

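In 14 of 147 groups of 5 values (48 genes and their mean, in 3 groups), the highest or lowest array was far from the rest, with a gap above 0.71 of the group's range. Chance alone gives about 1 in 20 such groups. CF4 was the array in 8 of the 14, each time high: Cdk1 (-2.65, the other CF arrays -4.23 to -3.94), Ccnb2 (-1.61, others -2.58 to -2.33), Cdc20 (-1.79, others -2.84 to -2.56), Nuf2 (-1.41, others -1.97 to -1.84), Knstrn (-1.23, others -2.14 to -1.99), Ncaph (-1.17, others -2.07 to -1.81), Mki67 (-1.18, others -2.96 to -2.58) and the mean of the 48 genes (-1.27, others -1.69 to -1.61). These 8 are not independent, because the genes vary together and the mean contains them. Other CF arrays stood apart for Zwilch (CF2 at -1.28, others -0.77 to -0.6), Cenpl (CF1 at -1.25, others -0.83 to -0.67) and Fam83d (CF5 at -2.61, others -3.93 to -3.67). Among aCF arrays, aCF2 was low for Plk1 (-0.55, others 0 to 0.13), aCF4 was low for Bub1 (-1.1, others 0 to 0.39) and aCF5 was high for Birc5 (0.27, others -0.05 to 0.04). No EpiSC array was far from the rest for these genes.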

How the results depend on the processing

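Names carry the largest limit: with identifiers as deposited, the members past the threshold were 0 in aCF against CF, 0 in EpiSC against aCF and 0 in EpiSC against CF, and the median differences were 0.008, -0.049 and -0.076. Whether equal replicate numbers mark the same heart is not known here, and the main fits did not pair arrays. In aCF against CF, deviations from group means correlated at -0.033 to 0.067 for same-numbered arrays and -0.108 to 0.137 for others. In EpiSC against aCF these ranges were -0.003 to 0.172 and -0.124 to 0.07, with EpiSC4 and aCF4 the highest. In EpiSC against CF they were -0.05 to 0.013 and -0.075 to 0.073. With a replicate block, 94 probe sets and 12 members passed in aCF against CF (340 and 25 without the block), 41 and 0 in EpiSC against aCF (148 and 0), and 166 and 19 in EpiSC against CF (647 and 34). Without aCF4 and aCF5, 144 probe sets and 13 members passed in aCF against CF and 50 and 0 in EpiSC against aCF. With Benjamini-Hochberg adjustment, 4023 probe sets and 43 members, 2135 and 21, and 7157 and 46 passed. A fit of all 3 groups called 369 probe sets in EpiSC against aCF (178 higher, 191 lower; the main split was 89 and 59) and 1060 in EpiSC against CF. The cause of these shifts was not tested. Leaving out 1 array at a time gave 197 to 272 probe sets, 20 to 27 members and medians of 1.47 to 1.59 in aCF against CF, 73 to 143, 0 to 0 and 0.48 to 0.58 in EpiSC against aCF, and 369 to 557, 26 to 30 and 2.24 to 2.35 in EpiSC against CF. The count of probe sets fell by over 1.5 times without CF2 (203), CF3 (197), CF5 (220), aCF2 (213) or aCF5 (215) in aCF against CF, without EpiSC1 (85), EpiSC2 (91), aCF1 (77), aCF2 (73), aCF3 (90), aCF4 (91) or aCF5 (87) in EpiSC against aCF, and without CF1 (381), CF2 (389), CF3 (369), CF4 (421) or CF5 (405) in EpiSC against CF. Of the 25 members called in aCF against CF, 20 held in all 10 omissions and 5 did not (Anln, Aspm, Kif15, Kif4, Nusap1). Of the 34 in EpiSC against CF, 23 held and 11 did not (Aspm, Aurka, Bub1b, Cenpi, Kif15, Mki67, Ncaph, Nuf2, Prc1, Stil, Zwilch). Signs turned for Cdc25b in aCF against CF without CF4 (-0.01) and without aCF2 (omissions gave -0.035 to 0.178), and in EpiSC against aCF for Cit without aCF4 (omissions gave -0.02 to 0.134) and without aCF4 and aCF5 (-0.025), and for Prc1 without both (-0.057). Further quantile normalization, robust moderation and the use of only rows with an identifier kept each count of members within 1.5 times.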
